A study of Mus musculus with 7 samples.

Results

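The comparison set RelA binding against RelB binding in wild-type (WT) C57BL/6 mouse bone marrow-derived dendritic cells (BMDCs) after 1 h of lipopolysaccharide (LPS) at 10 ng/mL. It was read from chromatin immunoprecipitation sequencing (ChIP-seq), in which DNA bound by a protein is pulled down with an antibody and sequenced. The deposited table gives 1 library of RelA and 1 library of RelB in these cells, and 1 input library, DNA of WT BMDCs sequenced with no antibody and with no time or treatment in its labels. Of the 93611 regions of the table, the 85014 enriched for at least 1 of both subunits were compared and ranked by the ratio of RelA to RelB signal. The other libraries of the series are a RelA library of cells labelled RelBko (lacking RelB) at 1 h of LPS, RelB libraries of RelBko cells at 0 h and 1 h, and a RelB library of unstimulated WT cells at 0 h. The cultures had been grown from marrow with the cytokines GM-CSF (20 ng/ml) and IL-4 (10 ng/ml), and the cells were fixed with the crosslinkers DSG at 1 mM and PFA at 1%. The stimulus is named LPS as in the sample titles, but the treatment text also cites an ODN reagent, which by its catalogue name is a CpG oligonucleotide and not LPS. Such cultures can hold several myeloid cell types, and since RNA was not measured here, the labelled cell type could not be checked against expressed markers. Whether a region was bound in fewer cells or less often per cell cannot be told apart in such bulk libraries.

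RelA and RelB are DNA-binding members of the NF-kB family, which act as dimers and recognise a short DNA sequence, the kB site. RelA is released quickly when LPS triggers the canonical pathway, which breaks down the IkB inhibitor proteins. RelB is best known from the slower noncanonical pathway of lymphoid organs and from the maturation of dendritic cells, where it also takes part in canonical signalling.

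The promoters of 5 genes from the RelA side, the middle and the RelB side of the ranking are printed here as examples, to show where they match the NF-kB consensus. Nfkbia encodes IkB alpha, the main NF-kB inhibitor, and its promoter region was strong for both subunits. Foxd2 (a forkhead transcription factor) and Cxcl2 (a chemokine that attracts neutrophils) had promoter regions with at least 2-fold more RelA signal. Cd63 (a tetraspanin of late endosomes) and Cx3cr1 (the fractalkine receptor) had promoter regions with at least 2-fold more RelB signal. Each window runs from 250 bases before to 50 bases after a start site, was taken from RefSeq in build GRCm38.p6 and is written 5' to 3' on the gene's strand. Capitals mark matches to the NF-kB consensus, a 10-letter pattern searched on both strands. The windows are Foxd2 at chr4:114908849-114909148 on the minus strand, Cxcl2 at chr5:90903649-90903948 on the plus strand, Nfkbia at chr12:55492598-55492897 on the minus strand, Cx3cr1 at chr9:120068247-120068546 on the minus strand and Cd63 at chr10:128909095-128909394 on the plus strand.
Foxd2: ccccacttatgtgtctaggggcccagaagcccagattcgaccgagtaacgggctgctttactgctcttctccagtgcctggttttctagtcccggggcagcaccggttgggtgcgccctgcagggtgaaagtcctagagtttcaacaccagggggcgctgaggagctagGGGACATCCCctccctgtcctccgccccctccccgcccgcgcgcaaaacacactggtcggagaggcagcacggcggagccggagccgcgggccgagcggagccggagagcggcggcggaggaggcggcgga
Cxcl2: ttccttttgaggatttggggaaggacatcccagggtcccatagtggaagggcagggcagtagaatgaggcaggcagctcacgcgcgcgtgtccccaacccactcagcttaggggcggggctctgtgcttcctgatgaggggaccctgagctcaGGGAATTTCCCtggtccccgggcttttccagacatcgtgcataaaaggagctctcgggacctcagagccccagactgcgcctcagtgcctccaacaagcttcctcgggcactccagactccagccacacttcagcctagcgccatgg
Nfkbia: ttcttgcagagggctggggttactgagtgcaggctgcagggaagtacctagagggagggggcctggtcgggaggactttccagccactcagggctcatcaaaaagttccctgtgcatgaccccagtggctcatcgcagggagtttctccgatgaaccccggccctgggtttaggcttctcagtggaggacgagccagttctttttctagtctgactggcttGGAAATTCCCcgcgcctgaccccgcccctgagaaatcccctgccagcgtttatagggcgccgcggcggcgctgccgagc
Cx3cr1: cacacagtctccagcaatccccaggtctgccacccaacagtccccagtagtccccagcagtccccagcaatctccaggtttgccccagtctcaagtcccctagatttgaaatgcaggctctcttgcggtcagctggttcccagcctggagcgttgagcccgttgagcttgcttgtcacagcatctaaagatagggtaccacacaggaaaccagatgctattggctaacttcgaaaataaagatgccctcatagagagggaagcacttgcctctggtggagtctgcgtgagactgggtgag
Cd63: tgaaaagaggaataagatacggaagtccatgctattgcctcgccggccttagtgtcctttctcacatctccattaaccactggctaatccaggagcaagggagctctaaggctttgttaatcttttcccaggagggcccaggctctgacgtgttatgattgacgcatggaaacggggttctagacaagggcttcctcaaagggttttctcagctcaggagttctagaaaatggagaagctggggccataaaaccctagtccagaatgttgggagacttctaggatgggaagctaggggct
The matches started 81 bases before the start site in Foxd2 and 29 bases before it in Nfkbia. Cxcl2 held 2 overlapping matches, 97 and 96 bases before the start site. The windows of Cx3cr1 and Cd63 held no match, which says only that these letters are not in these 300 bases. By the deposited distances, the regions of Cx3cr1 and Cd63 are centred at 99 and 54 bp from the start site. These centres lie past the end of the windows, so part of each region was not searched. The regions of Foxd2, Cxcl2 and Nfkbia are centred inside the windows, at -125, -114 and -94 bp. Among all 32851 promoter windows of the RefSeq table, 8.46% held a match. The 5 windows do not show a general split between the sides. Of 3 equal groups of promoters ranked by ratio, 19.4% held a match in the group nearest to RelA and 9.81% in that nearest to RelB.

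Signal is given as RPKM, reads of a region scaled to its length and to the reads of its library, as the authors calculated it. Ratios are RelA over RelB on the log2 scale after 0.5 RPKM was added to both values, which understates differences of weak regions. A region counted as enriched at 2 RPKM or more and at least 2-fold over input with the same 0.5 RPKM added, and a region was called higher for a subunit at a 2-fold difference. The antibodies may differ in how well they pull down DNA, so the ratio orders regions and does not compare amounts of the proteins. The RelA library held 17590435 reads and the RelB library 28425471, against 13188833 in the input, and 37.9% of RelA reads, 42.4% of RelB reads and 3.52% of input reads fell in the regions. There was 1 library per group, so no difference has a replicate check and no p-value is given. Intervals of read ratios are exact (Clopper-Pearson) 95% intervals and cover counting error alone; no molecular identifiers are recorded, so some reads may be copies of 1 molecule.

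Within the deposited list, RelA and RelB were enriched in largely the same regions, and a minority differed 2-fold. RelA enriched 76741 of the 93611 regions and RelB 76450, with 68177 enriched for both, 8564 for RelA alone and 8273 for RelB alone. As each subunit enriched most of this 1 list, a large overlap was bound to arise from the list and the filter. Called at 2-fold were 6336 regions higher for RelA (7.45% of those compared) and 6129 higher for RelB (7.21%). The median log2 ratio was -0.16, a ratio of 0.898, so that the middle of the ranking lay slightly on the RelB side. Scaled to a median ratio of 1, the same libraries gave 8298 regions higher for RelA and 3767 higher for RelB, so the balance of both counts depends on the scaling, and the order of the regions does not. The lower and upper quartiles were -0.54 and 0.30 on the log2 scale, with the 5th percentile at -1.12 and the 95th at 1.23. Across the compared regions the Spearman correlation of RelA and RelB RPKM was 0.865 and the Pearson correlation 0.861, a description of regions that share both libraries. Of the 1000 strongest regions of each library, 555 were in both.

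**Figure D1:**
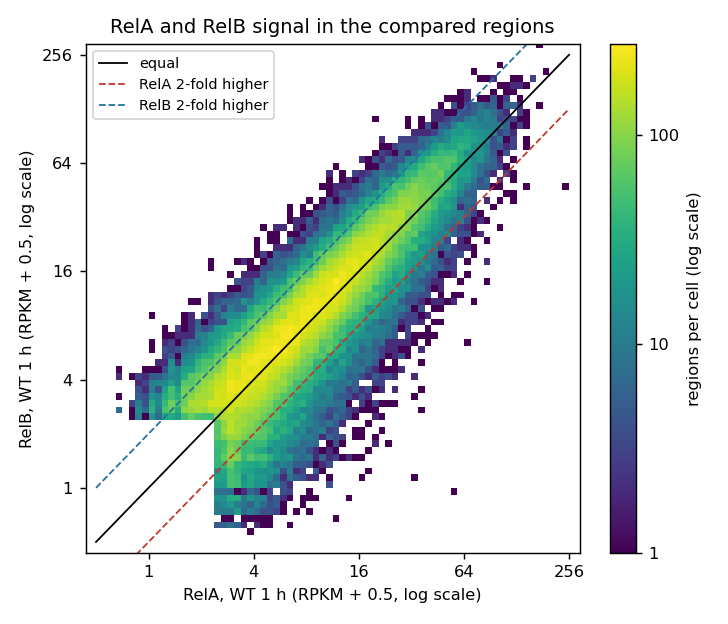
RelA RPKM on the horizontal axis and RelB RPKM on the vertical axis, both with 0.5 added and on log scales, for the 85014 compared regions, with colour for the number of regions per cell of the grid. Most regions lie between the dashed lines of a 2-fold difference, and the cloud is widest at low signal.

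The regions higher for RelA were mostly weak ones. Their median signal was 5.65 RPKM for RelA against 1.63 RPKM for RelB, and the regions higher for RelB had medians of 2.82 RPKM for RelA against 7.71 RPKM for RelB. Of 10 equal groups of regions ordered by mean signal, the lowest had 20.4% higher for RelA and 12.9% higher for RelB. The highest of these groups had 2.21% higher for RelA and 5.73% higher for RelB. The calls for RelA thinned out with signal more than the calls for RelB. The counting interval left out a ratio of 1 in 6334 of the 6336 regions higher for RelA and in 6022 of the 6129 higher for RelB. The same reads made the calls, so this follows largely from the 2-fold cut and is no separate support. The interval left out any ratio under 2-fold in 2362 regions higher for RelA and 990 higher for RelB, so many calls lie close to the threshold. Just inside the threshold, the region of Scamp3 had 24.7 RPKM for RelA against 12.1 RPKM for RelB, and just outside it the region of Gm31641 had 15.0 RPKM for RelA against 7.25 RPKM for RelB. On the RelB side, Atp11a stood just inside with 27.3 RPKM for RelA against 55.1 RPKM for RelB, and Gm9733 just outside with 1.29 RPKM for RelA against 3.08 RPKM for RelB.

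Promoters leaned to RelA, and distal regions leaned to RelB. Of 10016 promoter regions, 7.07% were higher for RelA and 1.11% higher for RelB, with a median log2 ratio of 0.10. Of 37200 intron regions, 7.35% were higher for RelA and 7.92% higher for RelB, with a median of -0.20. Of 32961 intergenic regions, 7.41% were higher for RelA and 8.50% higher for RelB, with a median of -0.23. In promoters the share higher for RelB was small, and the share higher for RelA was close to that of all regions. In counts, promoters were 708 of the 6336 regions higher for RelA (11.2%), 111 of the 6129 higher for RelB (1.81%) and 11.8% of all compared regions. Across the 11 alternative settings, the promoter median stayed above 0 and the intron and intergenic medians below 0.

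Regions in the 5' UTR class had values close to those of promoters, with 7.80% of 859 regions higher for RelA, 0.93% higher for RelB and a median log2 ratio of 0.11. Exon regions had the largest share higher for RelA among the 8 classes, 11.3% of 1481 regions, with 5.33% higher for RelB. The exon median of 0.02 turned negative in 3 of the 11 alternative settings. Regions at transcription termination sites (TTS), in 3' UTRs and in non-coding transcripts had medians of -0.13, -0.15 and -0.13, all of which came out above 0 once the libraries were scaled to a median ratio of 1. Their shares higher for RelA were 9.49%, 8.85% and 5.63%, and their shares higher for RelB were 7.81%, 7.01% and 6.17%.

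**Figure D2:**
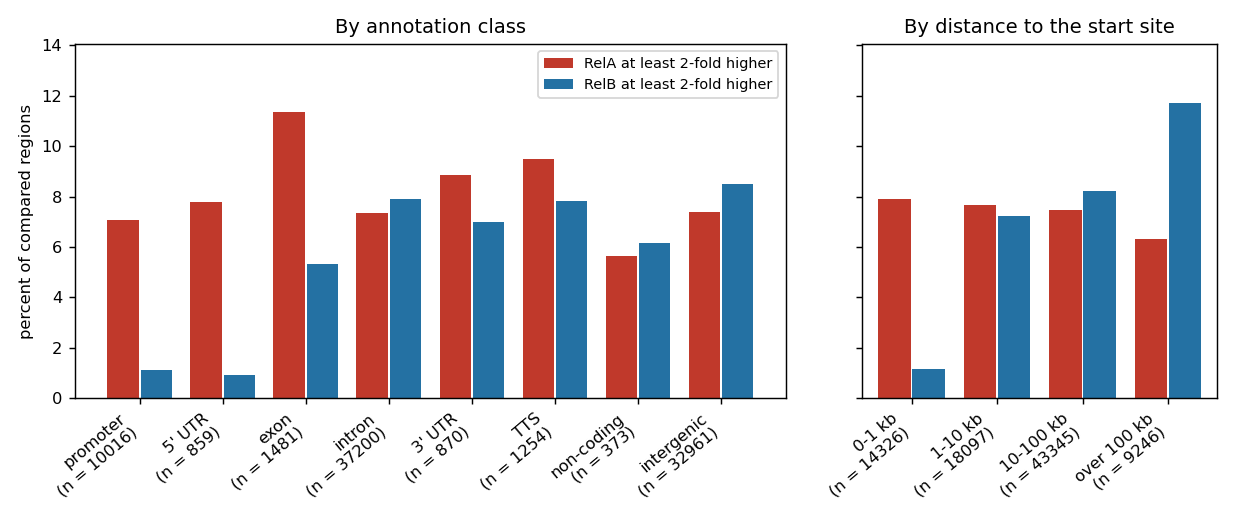
Percent of compared regions called higher for RelA (left bar of each pair) and for RelB (right bar) by annotation class and by distance to the nearest start site, with the number of regions under each pair. The share higher for RelB is near 1% in promoters and 5' UTRs and reaches 11.7% beyond 100 kb.

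Distance from the transcription start site (TSS) ordered the regions in the same way. Within 1 kb of a TSS, 7.91% of 14326 regions were higher for RelA and 1.17% higher for RelB, with a median log2 ratio of 0.12. Between 1 and 10 kb the shares were 7.65% for RelA and 7.22% for RelB, and between 10 and 100 kb they were 7.46% for RelA and 8.24% for RelB. Beyond 100 kb, 6.33% of 9246 regions were higher for RelA and 11.7% higher for RelB, with a median of -0.34. The share higher for RelB grew at each step outward, and the share higher for RelA was lower at each step. Close to the TSS the share higher for RelB was 4.53% in the 971 regions from -1000 to -500 bp and 0.49% in the 1821 regions from -250 to -100 bp. The share higher for RelA was largest, 11.6% of 1384 regions, from 250 to 500 bp downstream of the TSS.

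The same order appeared when regions were ranked. In 10 equal groups from the highest ratio to the lowest, the share of promoters was 12.2%, 18.0%, 19.8%, 19.0%, 15.8%, 12.4%, 9.07%, 5.79%, 3.79% and 2.03%. Promoters were most frequent in the third of these groups, at log2 ratios between 0.19 and 0.44, rather than at the extreme RelA end. Regions beyond 100 kb made up 8.89% of the first group and 17.4% of the last.

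Signal strength differed between the classes, so the classes were also compared at similar signal. In the highest of 4 equal groups by mean signal, 7.18% of promoters were higher for RelA and 1.01% higher for RelB. Introns of that group had 2.50% higher for RelA and 6.60% higher for RelB, and intergenic regions 1.64% higher for RelA and 7.38% higher for RelB. In the lowest group, promoters had 17.6% higher for RelA and 3.07% higher for RelB, and introns 14.0% for RelA and 10.2% for RelB. The promoter median was above the intron and intergenic medians in all 4 groups. Among regions with at least 20 RPKM in the higher library, 292 of 2938 promoters were higher for RelA (9.94%) and 41 higher for RelB (1.40%), against 3.30% higher for RelA and 8.40% higher for RelB in the 15507 regions of other classes.

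The antibody against RelB left some signal in cells without RelB, and that signal was also higher at promoters. At 1 h the RelB antibody gave a median of 1.68 RPKM at promoters and 1.06 RPKM at introns in RelBko cells, against 11.1 RPKM at promoters and 6.80 RPKM at introns in WT cells and an input of 1.28 RPKM at promoters and 0.897 RPKM at introns. At 0 h the residual signal in RelBko cells was larger, with 3.41 RPKM at promoters and 1.48 RPKM at introns, against 9.54 RPKM at promoters and 5.88 RPKM at introns for RelB in WT cells. The WT library at 0 h is the RelB library of the other pair described next. The part of this residual signal in the RelB values was not tested. Among chromosomes, X had the smallest share of regions higher for RelA, 4.66%, and the largest share higher for RelB, 10.6%. The autosomes lay between 6.34% and 8.72% for RelA and between 6.06% and 8.17% for RelB.

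A pair of other libraries showed the same lean in most called regions. RelA in RelBko cells at 1 h was set against RelB in unstimulated WT cells at 0 h, 2 libraries that the WT contrast at 1 h did not use. Of the libraries behind both contrasts, the input, used for the enrichment filter, was the one in common, and genotype and stimulation differ between them as well as the antibody. In all compared regions, 15.4% were at least 2-fold higher for RelA in this pair and 14.5% at least 2-fold higher for RelB. Of the 6336 regions higher for RelA in WT at 1 h, 57.8% were again at least 2-fold higher for RelA and 0.24% were at least 2-fold higher for RelB, with a median log2 ratio of 1.13. Of the 6129 regions higher for RelB, 60.7% were again at least 2-fold higher for RelB and 1.70% at least 2-fold higher for RelA, with a median of -1.25. Both groups of regions kept their side far more often than they changed it.

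The recurrence was larger in strong regions. With at least 20 RPKM in the higher library, 81.3% of 804 regions higher for RelA recurred and none turned 2-fold to RelB. Of the 1343 strong regions higher for RelB, 74.8% recurred and 0.52% turned 2-fold to RelA. Over all regions with at least 20 RPKM, 14.2% were 2-fold higher for RelA in that pair and 14.1% for RelB. Of the 708 promoters higher for RelA, 72.0% recurred and none turned 2-fold to RelB, and of the 111 promoters higher for RelB, 51.4% recurred and 1 turned. Over all promoters, 15.7% were 2-fold higher for RelA in that pair and 2.59% for RelB.

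**Figure D3:**
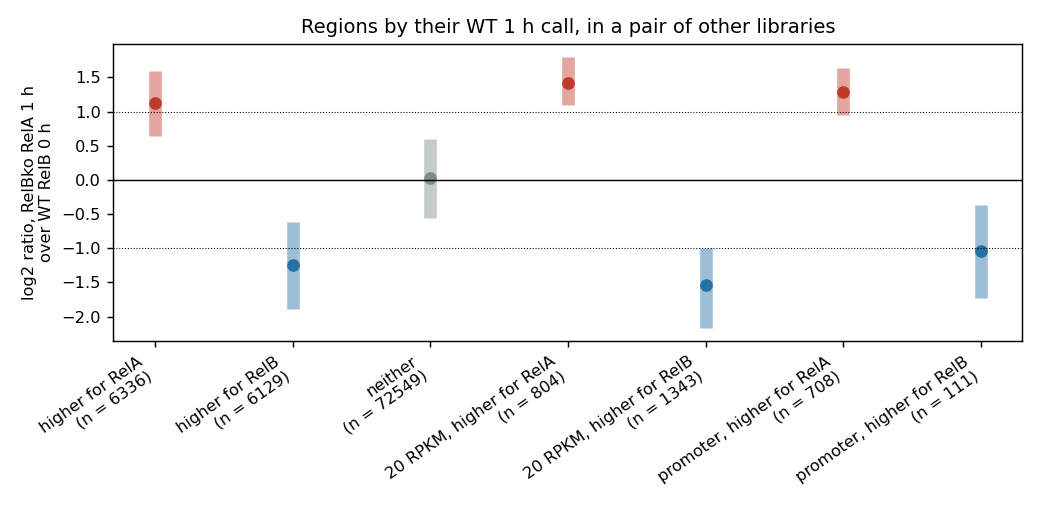
Median (point) and interquartile range (bar) of the log2 ratio of RelA in RelBko cells at 1 h over RelB in WT cells at 0 h, in RPKM with 0.5 added, for regions grouped by their call in WT cells at 1 h. The groups higher for RelA have medians of 1.13 to 1.41 and those higher for RelB have medians of -1.04 to -1.54, with 0.03 for regions called for neither.

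To describe genes, each gene was represented by its strongest compared region within 100 kb, where strength is the mean of RelA and RelB RPKM. Of the 17640 genes with such a region, 1225 were higher for RelA (6.94%) and 977 higher for RelB (5.54%), with a median log2 ratio of -0.10 and 9965 genes below 0. Strong regions lay lower in general, and of the 18445 regions with at least 20 RPKM in the higher library 31.1% lay above 0, with a median of -0.29. A nearest gene is an assignment by distance and does not show which gene a region controls. The genes came from 17 lists of 330 entries, of which 315 had a region.

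The genes of the NF-kB family themselves were bound strongly by both subunits, and none of the 11 subunit and inhibitor genes differed 2-fold. Their median log2 ratio was 0.22, against -0.10 for all genes, with 8 of 11 above 0, and it came to 0.052 in the lowest of the 12 alternatives run for the lists. Of these 11 regions 9 were promoters, against 4963 of the 17640 for all genes. Promoters with at least 20 RPKM in the higher library had a median of 0.14, with 60.4% above 0. Relb itself had 89.0 RPKM for RelA against 49.3 RPKM for RelB at its promoter, with 1.99 RPKM in input, a read ratio of 1.80 (interval 1.60 to 2.03). Nfkb2, which encodes the precursor of the partner of RelB in the noncanonical pathway, had 145 RPKM for RelA against 82.0 RPKM for RelB (ratio 1.77, interval 1.61 to 1.95). Both intervals lay above 1, and neither ratio with the pseudocount reached 2-fold. Nfkbib, which encodes the inhibitor IkB beta, had 65.6 RPKM for RelA against 38.2 RPKM for RelB in an intron region. Bcl3, which encodes a nuclear IkB-like coactivator, had 113 RPKM for RelA against 69.5 RPKM for RelB. Rel, the gene of the c-Rel subunit, had 112 RPKM for RelA against 81.3 RPKM for RelB.

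The remaining genes of this list lay closer to equality. Nfkb1, which encodes the main partner of RelA, had 91.9 RPKM for RelA against 79.0 RPKM for RelB, and Rela had 59.6 RPKM for RelA against 51.4 RPKM for RelB. Nfkbia had the strongest region of the list, at chr12:56593546-56593910 in build mm9, with 189.5 RPKM for RelA against 207 RPKM for RelB and 1.87 RPKM in input. Nfkbie, the gene of IkB epsilon, had 89.9 RPKM for RelA against 94.6 RPKM for RelB. The atypical nuclear inhibitors Nfkbiz and Nfkbid had log2 ratios of 0.04 and -0.05. In the other pair of libraries the median of the list was -0.10, against 0.16 for all genes, so its position above all genes did not recur. Relb had 70.6 RPKM for RelA in RelBko cells at 1 h against 104 RPKM for RelB in WT cells at 0 h, and Nfkb1 and Rela also lay below 0 in that pair, with log2 ratios of -0.81 and -0.10. Over the 111 compared regions of these 11 genes the median was -0.13, with 11 higher for RelA and 9 higher for RelB, so that single regions of a gene went either way; Nfkb1 had 4 of 30 regions higher for RelA and 2 higher for RelB.

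**Figure D4:**
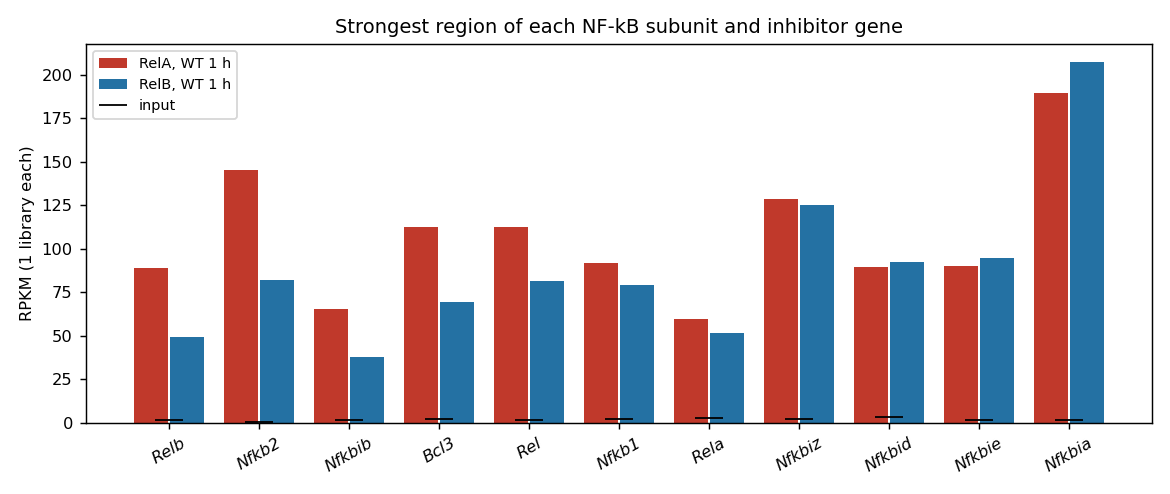
RPKM of RelA (left bar) and RelB (right bar) in WT cells at 1 h, with input as a dash, at the strongest region of the 11 NF-kB subunit and inhibitor genes, ordered from the highest ratio to the lowest, 1 library each. Relb and Nfkb2 have the highest ratios and Nfkbia the tallest bars.

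Genes of NF-kB feedback and signalling had 14 of 20 members below 0, near the share among strong regions, with a median log2 ratio of -0.23 that reached 0.00 when ratios were centred within bins of signal. Otulin, which encodes a deubiquitinase of linear chains, was the member called (5% of the list, beside 5.54% of all genes higher for RelB). It had 15.9 RPKM for RelA against 51.6 RPKM for RelB in a region at -9987 bp from its start site. The RelBko RelA library had 8.73 RPKM there and the WT RelB library at 0 h 54.4 RPKM. Traf1 and Traf3, adaptors of TNF family receptors of which Traf3 restrains the noncanonical pathway, had 77.1 and 76.2 RPKM for RelA against 121 RPKM each for RelB. Tnfaip3, which encodes the ubiquitin editor A20, had 131 RPKM for RelA against 117 RPKM for RelB, and Ikbke, an IkB kinase-related gene, had 52.4 RPKM for RelA against 28.7 RPKM for RelB. Feedback genes were found on both sides of equality.

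Cytokine genes were near equality, with none of 20 called and a median log2 ratio of -0.08 that came out above 0 when scaled to a median ratio of 1 or centred within bins of signal. Tnf, the gene of tumour necrosis factor, had 111 RPKM for RelA against 129.6 RPKM for RelB at its promoter. Il12b, which encodes a subunit of interleukin 12, had 81.9 RPKM for RelA against 135 RPKM for RelB in a region at -17725 bp from its start site, the lowest log2 ratio of the list at -0.72. Csf3, the gene of G-CSF, had the highest at 0.82, with 9.23 RPKM for RelA against 5.03 RPKM for RelB. Il1a had 114 RPKM for RelA against 142 RPKM for RelB.

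Among 19 chemokine genes, 1 was higher for RelA and 1 higher for RelB (5.26% each, beside 6.94% and 5.54% of all genes). Of them 16 lay below 0, and the median of -0.29 came out just above 0 when ratios were centred within bins of signal. At its promoter (mm9 chr5:91332623-91332999), Cxcl2 had 57.9 RPKM for RelA against 27.3 RPKM for RelB and 2.41 RPKM in input, a read ratio of 2.12 (interval 1.81 to 2.47). The other libraries went the same way there, with 51.5 RPKM for RelA in RelBko cells at 1 h against 15.8 RPKM for RelB in WT cells at 0 h. Ccl6, which encodes a CC chemokine of myeloid cells, had 18.5 RPKM for RelA against 49.7 RPKM for RelB in an intron region. Ccl2, Ccl22 and Cxcl16, chemokines for monocytes and lymphocytes with strong regions for both subunits, had log2 ratios of -0.29, -0.33 and -0.09.

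Of 31 genes of the interferon response, 2 were higher for RelA (6.45%, beside 6.94% of all genes) and none higher for RelB (beside 5.54%). Their median of -0.16 came out above 0 when scaled to a median ratio of 1 or centred within bins of signal. Ifit2, an antiviral effector gene, had 10.5 RPKM for RelA against 3.72 RPKM for RelB at its promoter, and both of its 2 compared regions were higher for RelA. Trim21, a ubiquitin ligase gene named here after its values were seen, had 3.20 RPKM for RelA against 0.94 RPKM for RelB, a weak region. Irf1, an interferon regulatory factor gene, had 69.2 RPKM for RelA against 46.3 RPKM for RelB. Ifnar1 and Ifnar2, the receptor genes of type I interferon, had log2 ratios of -0.44 and -0.43. Ddx58, which encodes the RNA sensor RIG-I, had 23.5 RPKM for RelA against 41.8 RPKM for RelB. The 2 called genes had weaker regions, and the strongest regions of the list stayed under 2-fold.

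Genes of dendritic cell maturation lay mostly below 0, with none of 26 higher for RelA, 3 higher for RelB and 22 below 0. Their median log2 ratio was -0.31, against -0.10 for all genes and -0.29 for regions with at least 20 RPKM, and it came to -0.026 when ratios were centred within bins of signal. The list median was thus close to that of strong regions in general. The genes called higher for RelB were 11.5% of the list, beside 5.54% of all genes. Of regions with at least 20 RPKM in the higher library, 7.28% were higher for RelB, and of those outside promoters 8.40%. Cd200, which encodes a ligand of an inhibitory receptor on myeloid cells, had 36.8 RPKM for RelA against 92.9 RPKM for RelB in a region 59052 bp from its start site, and 3 of its 17 regions were higher for RelB. Ccr7 and Cd274 were the other called genes and are named here after their values were seen. Ccr7, the gene of a chemokine receptor needed for migration into lymph nodes, had 62.0 RPKM for RelA against 156 RPKM for RelB at -13128 bp from its start site (mm9 chr11:99029327-99029711). Cd274, which encodes the inhibitory ligand PD-L1, had 26.7 RPKM for RelA against 57.9 RPKM for RelB in an intron. All 3 regions were also lower for RelA in the other pair of libraries, with log2 ratios of -1.61 for Cd200, -1.43 for Ccr7 and -1.61 for Cd274. Cd40, a costimulatory receptor gene, and Cd83, a maturation marker gene, had strong regions under the threshold, with log2 ratios of -0.11 and -0.44, and Socs3, a cytokine signalling inhibitor gene, had 0.05. Of the 26 regions of this list, 9 were promoters.

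Genes of myeloid and dendritic lineage factors had no 2-fold call, with 23 of 27 below 0 and a median of -0.32, close to the -0.29 of regions with at least 20 RPKM. This median came to -0.055 when ratios were centred within bins of signal. Irf8, a lineage factor of dendritic cells and monocytes, had 66.8 RPKM for RelA against 119 RPKM for RelB in a region at -28537 bp from its start site. Bcl6, a transcriptional repressor gene, had 54.1 RPKM for RelA against 98.3 RPKM for RelB. Etv6 and Runx3, transcription factor genes, had log2 ratios of -0.18 and -0.41, and Csf2ra, which encodes the GM-CSF receptor alpha chain, had 27.5 RPKM for RelA against 15.8 RPKM for RelB.

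Genes of antigen presentation were spread around equality, with none of 21 called and a median of 0.01 that turned below 0 in 2 of 12 alternatives. Ciita, the master regulator of MHC class II genes, had 60.6 RPKM for RelA against 69.3 RPKM for RelB, and Cd74, the invariant chain gene, had 98.4 RPKM for RelA against 86.5 RPKM for RelB. The ends were Psme2, a proteasome activator gene, with 49.9 RPKM for RelA against 31.7 RPKM for RelB, and Cd1d1, which presents lipids, with 41.4 RPKM for RelA against 79.7 RPKM for RelB. H2-DMb2, which helps load MHC class II, had 44.5 RPKM for RelA against 85.5 RPKM for RelB.

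Genes of LPS sensing and MAP kinase control had 1 of 24 members called on each side (4.17% each, beside 6.94% of all genes for RelA and 5.54% for RelB), with a median of -0.14 that came out above 0 when scaled to a median ratio of 1 or centred within bins of signal. Irak3, which encodes a brake on Toll-like receptor signalling, had 25.3 RPKM for RelA against 7.88 RPKM for RelB and 1.93 RPKM in input at its promoter (mm9 chr10:119638377-119638769), a read ratio of 3.21 (interval 2.47 to 4.20). Its other libraries had 22.0 RPKM for RelA in RelBko cells at 1 h against 4.64 RPKM for RelB in WT cells at 0 h. Ly96, which encodes the LPS co-receptor MD-2, had 24.8 RPKM for RelA against 56.1 RPKM for RelB in an intron, and 4 of its 11 regions were higher for RelB. Mapk8, the gene of the kinase JNK1, had 93.7 RPKM for RelA against 119.5 RPKM for RelB. Dusp1 and Dusp2, phosphatases of MAP kinases, had log2 ratios of 0.05 and -0.19.

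None of 23 immediate early genes was called, with a median of -0.09 that turned above 0 in 3 of 12 alternatives. Zfp36, an mRNA decay factor gene, had 107.5 RPKM for RelA against 98.4 RPKM for RelB, and the transcription factor genes Fos and Egr3 had log2 ratios of -0.43 and -0.51. The ends were Egr1, a zinc finger factor gene, with 27.5 RPKM for RelA against 18.3 RPKM for RelB, and Ier5 with 55.8 RPKM for RelA against 107 RPKM for RelB. Among 19 genes of survival and stress, 1 was higher for RelA (5.26%, beside 6.94% of all genes). Their median of -0.08 turned above 0 in 4 of 12 alternatives. Sod2, which encodes mitochondrial superoxide dismutase, had 64.9 RPKM for RelA against 26.3 RPKM for RelB in an intron region (mm9 chr17:13202927-13203312), a read ratio of 2.47 (interval 2.12 to 2.87). In the other pair Sod2 had 59.2 RPKM for RelA in RelBko cells at 1 h against 6.80 RPKM for RelB in WT cells at 0 h. The survival gene Bcl2l1 had 111.5 RPKM for RelA against 93.1 RPKM for RelB, and Bcl2a1b, of the same family, had 25.4 RPKM for RelA against 46.0 RPKM for RelB. Reads of Bcl2a1b may be shared with its near-identical copies. Gadd45b, a stress response gene, and Sqstm1, an autophagy receptor gene, had log2 ratios of 0.29 and 0.50.

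Genes of noncanonical receptors and lymphoid organisation, the pathway that RelB is best known from, had no call among 15 and a median of 0.17 that came to 0.0063 in the lowest of 12 alternatives. Over all 87 regions of these genes the median was -0.21, with 4 regions higher for RelA and 7 higher for RelB. Tnfrsf1b, a TNF receptor gene, had 94.1 RPKM for RelA against 149 RPKM for RelB. Tnfrsf13b and Tnfrsf13c, B cell survival receptor genes, had log2 ratios of -0.44 and -0.16. The ends were Tnfsf13, which encodes the ligand APRIL, with 19.3 RPKM for RelA against 9.84 RPKM for RelB, and Glycam1, an adhesion ligand gene of lymph node vessels, with 23.7 RPKM for RelA against 40.4 RPKM for RelB.

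Housekeeping genes gave a comparison group with 2 of 20 higher for RelA (10%, beside 6.94% of all genes) and 1 higher for RelB (5%, beside 5.54%). Their median of -0.08 turned above 0 in 3 of 12 alternatives. Sdha, a respiratory chain gene, had 19.9 RPKM for RelA against 7.75 RPKM for RelB, and Rplp0, a ribosomal protein gene named here after its values were seen, had 65.1 RPKM for RelA against 30.7 RPKM for RelB. Gusb, a lysosomal enzyme gene, had 23.0 RPKM for RelA against 49.5 RPKM for RelB. Actb and Eef1a1 had log2 ratios of -0.30 and -0.04. Calls occurred in genes outside the immune lists as well.

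Among genes that mark other cell types, 5 of 13 neutrophil genes were higher for RelA and none higher for RelB, beside 6.94% and 5.54% of all genes. For all genes the median RelA level was 13.8 RPKM. Lcn2, which encodes an iron-scavenging granule protein, had 12.4 RPKM for RelA against 1.49 RPKM for RelB and 1.07 RPKM in input at its promoter, a read ratio of 8.28 (interval 4.73 to 15.5). Camp, the cathelicidin gene, had 15.2 RPKM for RelA against 2.92 RPKM for RelB at its promoter. S100a9 had 18.2 RPKM for RelA against 6.30 RPKM for RelB, S100a8 had 3.49 RPKM for RelA against 1.34 RPKM for RelB, and Ly6g had 4.28 RPKM for RelA against 1.24 RPKM for RelB. Camp, S100a8, S100a9 and Ly6g are named here after their values were seen. In the other pair of libraries, 4 of these 5 regions were again at least 2-fold higher for RelA, and Ly6g had a log2 ratio of 0.71. Ltf, Mmp9 and Cxcr2, further neutrophil genes, had log2 ratios of -0.24, 0.14 and -0.52. The list median was 0.18, and it lay between 0.029 and 0.81 in the 12 alternatives. RNA was not measured, so the part of neutrophils in these cultures was not tested.

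The other marker lists showed few calls. Of 9 B cell genes, 1 was higher for RelB (11.1%, beside 5.54% of all genes). It was the complement receptor gene Cr2, with 4.58 RPKM for RelA against 11.5 RPKM for RelB. The list median of -0.02 changed sign in 5 of 12 alternatives. Pax5, Cd79b, Fcer2a and Cd22, a B cell factor and B cell receptors, had log2 ratios of 0.92, -0.02, -0.37 and -0.67. Of 12 T and NK cell genes, 2 were higher for RelA (16.7%, beside 6.94% of all genes), both at weak regions, with a list median of -0.38. Lck, a T cell kinase gene, had 2.47 RPKM for RelA against 0.31 RPKM for RelB, and it lay on the other side in the other pair of libraries with a log2 ratio of -1.07. Zap70, also a T cell kinase gene and named after its values were seen, had 4.98 RPKM for RelA against 1.71 RPKM for RelB. Cd3d, Gata3 and Klrb1c, T and NK cell genes, had log2 ratios of -0.51, -0.29 and -0.86. None of 5 erythroid and mast cell genes was called, with log2 ratios of 0.44 for Klf1, an erythroid factor, -0.23 for Gata2 and -0.86 for Kit, the stem cell factor receptor.

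**Figure D5:**
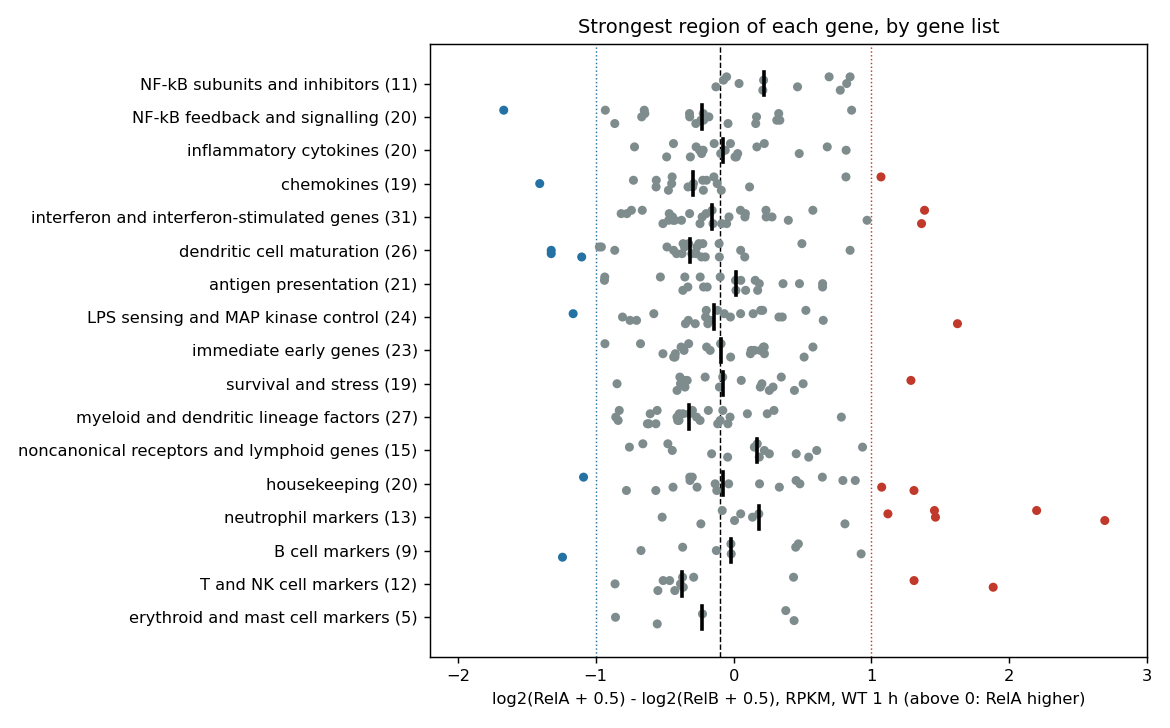
Log2 ratio of RelA over RelB in WT cells at 1 h (RPKM with 0.5 added) at the strongest region of each gene, 1 point per gene, with a bar at each list's median, a dashed line at the median of all genes and dotted lines at 2-fold. Points past the dotted lines are called, and 5 of the 13 neutrophil genes and 3 of the 26 maturation genes lie past them.

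The RelA end of the ranking, among regions within 100 kb of a gene and with at least 20 RPKM in the higher library, held genes of several functions. Of these 17020 regions, 777 were higher for RelA (4.56%) and 1161 higher for RelB (6.82%). Ptgs1, which encodes the cyclooxygenase COX-1, had 64.4 RPKM for RelA against 5.72 RPKM for RelB and 2.24 RPKM in input at -16160 bp from its start site (mm9 chr2:36069618-36069955), a read ratio of 11.3 (interval 8.47 to 15.2). Ptger1, which encodes a prostaglandin E receptor, had 25.6 RPKM for RelA against 2.54 RPKM for RelB. Ube2o, a ubiquitin-conjugating enzyme gene, had 37.2 RPKM for RelA against 3.11 RPKM for RelB, and Prss2, a trypsin gene, had 33.1 RPKM for RelA against 2.81 RPKM for RelB. Input was 1.02 RPKM at the Ube2o region, 0.67 RPKM at the Prss2 region and 1.17 RPKM at the Ptger1 region. The RelB antibody in WT cells at 1 h also lay above input there, by far less than RelA did. In RelBko cells this antibody gave 2.91, 3.89 and 3.24 RPKM at these regions at 0 h, in the same order. At 1 h it gave 2.61, 0.61 and 1.32 RPKM in RelBko cells. Whether RelB itself was bound at these regions was not tested. Gm20219, Mrpl45, Stpg4, Tusc5 and Bnip1 had log2 ratios of 4.83, 3.84, 3.79, 3.06 and 3.00. In RelBko cells at 1 h these 9 regions had 11.0 to 45.9 RPKM for RelA, against 1.48 to 5.40 RPKM for RelB in WT cells at 0 h.

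The highest ratio of all went with a region that did not recur. The exon region of Zc3h13, an RNA methylation factor gene, at chr14:75721377-75721544 in build mm9, had 56.5 RPKM for RelA (167 reads) against 0.42 RPKM for RelB (2 reads) and 1.81 RPKM in input, a read ratio of 135 (interval 36.8 to 1123). RelA in RelBko cells at 1 h had 0.25 RPKM there, so this ratio rests on 1 library.

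At the RelB end, all 10 regions recurred in the other pair of libraries. Elf1, which encodes an ETS family transcription factor, had the strongest of them, with 19.1 RPKM for RelA against 112 RPKM for RelB and 1.00 RPKM in input in an intron region (mm9 chr14:79907709-79908086) at -7584 bp from its assigned start site, an inverse ratio (RelB over RelA) of 5.87 (interval 4.88 to 7.10). In the other pair it had 19.0 RPKM for RelA in RelBko cells at 1 h against 159 RPKM for RelB in WT cells at 0 h. Ergic1, a gene of the early secretory pathway, had the lowest log2 ratio at -2.66, with 3.95 RPKM for RelA against 27.6 RPKM for RelB. Cd6, a lymphocyte receptor gene, had 4.89 RPKM for RelA against 27.6 RPKM for RelB, and Rack1, a ribosomal scaffold gene, had 10.0 RPKM for RelA against 53.3 RPKM for RelB. None of these 10 regions was in the promoter class, and neither was any of the 10 at the RelA end. Vps39, Cast, 4930545L23Rik, E230016M11Rik, Lncenc1 and Rps6ka3 had log2 ratios between -2.33 and -2.49. Across the 10 regions the other pair gave log2 ratios from -4.86 to -2.33. RelA at 1 h was lower in RelBko than in WT cells at all 10, least at Elf1. At Cd6 it was 0.24 RPKM in RelBko cells against 4.89 RPKM in WT cells, and at Ergic1 0.45 against 3.95 RPKM. The ratios of the other pair therefore include this difference in RelA, and its part in them was not tested.

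Among promoters with at least 20 RPKM, those higher for RelA outnumbered those higher for RelB by 292 to 41 of 2938. Foxd2 (mm9 chr4:114581431-114581826) had 74.7 RPKM for RelA against 10.5 RPKM for RelB and 2.49 RPKM in input, a read ratio of 7.12 (interval 5.82 to 8.77), and its printed window carries 1 match to the NF-kB consensus. Hpca, which encodes a neuronal calcium sensor, had 62.9 RPKM for RelA against 11.2 RPKM for RelB, and Map4k2, a kinase gene upstream of JNK, had 58.0 RPKM for RelA against 10.6 RPKM for RelB. Rasgrp2, an activator gene of Rap proteins, had 21.7 RPKM for RelA against 3.41 RPKM for RelB. The remaining promoters at this end were those of 1810032O08Rik, Rida, Xndc1, Rasgef1a, Haus1 and 6430571L13Rik, with log2 ratios from 2.23 to 2.79. All 10 were at least 2-fold higher for RelA in the other pair of libraries, with log2 ratios from 1.40 to 2.69.

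The promoters higher for RelB were fewer and less extreme. Cd63 (mm9 chr10:128346296-128346614) had the strongest of them, with 29.2 RPKM for RelA against 109 RPKM for RelB and 1.66 RPKM in input, an inverse ratio of 3.74 (interval 3.17 to 4.44). In the other pair Cd63 had 8.77 RPKM for RelA in RelBko cells at 1 h against 87.3 RPKM for RelB in WT cells at 0 h. Cx3cr1 had 12.4 RPKM for RelA against 34.4 RPKM for RelB, an inverse ratio of 2.77 (interval 2.17 to 3.57). The windows of both genes hold no match to the consensus, but both regions are centred past the end of these windows. Ktn1, a kinesin receptor gene, had 8.97 RPKM for RelA against 30.2 RPKM for RelB, and P2ry10, a lymphoid G protein-coupled receptor gene, had 10.1 RPKM for RelA against 33.5 RPKM for RelB. Armh1, Gm13546, Bcl7c, Gm20257, Ccdc33 and Mir5103 completed the 10, with log2 ratios from -2.21 to -1.40.

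Promoters nearer to the RelA end of the ranking held the NF-kB consensus more often. Of 6076 genes with a promoter region centred in the RefSeq window, 4929 were matched to a window (81.1%). In 3 equal groups of these genes, from the highest ratio to the lowest, 19.4%, 12.5% and 9.81% of promoters held the consensus, against 13.9% of all matched promoters and 8.46% of all windows in the table. With at least 20 RPKM in the higher library, the shares were 29.9%, 19.2% and 16.9%. Where a gene had several windows, the share of its windows with a match was averaged. The consensus became rarer from the RelA side to the RelB side, and GC content varied less, with medians of 62.0%, 62.7% and 61.0%. The GC box GGGCGG, bound by SP1, was in 69.3%, 69.9% and 62.4%, against 35.7% of all windows.

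The ETS core CCGGAAG was in 17.5%, 21.3% and 21.4% of the promoters in these 3 groups, against 8.86% of all windows. The CCAAT box CCAAT, bound by NF-Y, was in 37.7%, 35.4% and 32.8%, against 37.4% of all windows. The AP-1 motif TGANTCA, bound by FOS and JUN, was in 5.16%, 5.04% and 7.10%, against 7.81% of all windows. The interferon regulatory factor motif was in 2.42%, 3.08% and 4.41%, against 3.44%. AP-1 and interferon regulatory factor motifs were most frequent in the group nearest to RelB. The C/EBP motif TTGCNNAA was in 8.72%, 6.69% and 8.48%, against 10.8%, and the NRF1 motif was in 9.37%, 13.1% and 12.0%, against 4.60%. All motifs were searched on both strands, matches of different motifs may overlap, and a match is a description of the letters and not of binding. Of the genes called at 2-fold, 78.5% of those higher for RelA and 74.4% of those higher for RelB had a window, too few for this check, so their shares are not given.

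Genes with many regions rarely leaned as a whole. Of 2122 genes with at least 10 compared regions, 732 had regions called both ways, and 289 had none called. The largest shares higher for RelA were in Sash1, a scaffold gene of Toll-like receptor signalling, with 7 of 16 regions, Angptl2 with 4 of 10, Rab44 with 4 of 10, Batf with 5 of 13 and 1700019C18Rik with 4 of 11. Batf encodes an AP-1 family factor, and its regions had medians of 11.4 RPKM for RelA against 4.76 RPKM for RelB, with none higher for RelB. The largest shares higher for RelB were 5 of 10 regions in Apln, Mterf1b and Zbtb20 and 5 of 11 in Cask and Ror1. Zbtb20, a transcriptional repressor gene, had medians of 3.39 RPKM for RelA against 7.23 RPKM for RelB, and Apln and Cask lie on chromosome X. The median log2 ratio lay between 0.15 and 0.54 in the 5 genes with the largest shares for RelA and between -0.98 and -0.82 in the 5 with the largest shares for RelB. In the other pair of libraries, all compared regions had a median of 0.03. Over all their regions, the 5 genes with the largest shares for RelA had medians there of 0.12 for Sash1, 0.50 for Angptl2, 0.87 for Rab44, 1.04 for Batf and -0.26 for 1700019C18Rik. The 5 with the largest shares for RelB had medians between -1.07 and -0.59. The genes on the RelB side kept their side there, and 1700019C18Rik on the RelA side did not.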

How the data were processed

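ChIP-seq of RelA and RelB was compared in WT BMDCs at 1 h of LPS, with 1 library per group, grouped by the labels. Per the file headers, the authors deposited RPKM values for 93611 regions in 7 libraries, with the nearest gene, the distance to its start site and an annotation class. HISAT2, HOMER, bedtools and build mm9 are named in the submitters' processing notes; their roles and versions and the choice of regions are not stated in those notes. Every RPKM value was a whole multiple of 1 read (100% within 0.01 read), so reads and library totals were recovered; 1 read may have been added to every value by the authors.

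Ratios used a pseudocount of 0.5 RPKM, enrichment 2 RPKM and 2-fold over input, and calls 2-fold. Depth limits weak regions: the median called region held 54 reads of both libraries if higher for RelA and 97 if higher for RelB. The design has no replicates, so RPKM log ratios were described without a test. The steps were tested on simulated data. The tools were Python 3.11.15 with numpy 2.4.6, pandas 2.3.3, scipy 1.17.1 and matplotlib 3.10.9.

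The genes named are all NF-kB subunits and inhibitors, the 3 strongest and both end members of each other list, the 10 regions and 10 promoters at each end, and 5 genes with many regions at each end; 1 housekeeping gene that this rule names is not reported here. The regions, lists and rules were chosen with earlier results of these data known. Alternatives changed the pseudocount, filter, scaling, depth, input treatment and region per gene. Regions in mm9, counted from 1, and RefSeq windows in GRCm38.p6 were linked by gene name or accession only, and region sequences were not used here.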

Additional observations from a re-analysis of the deposited data

How the results depend on the processing

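No paired analysis was possible because each group has 1 library, and no library could be left out. The limits are depth at weak regions, the unknown scaling between antibodies and the lack of replicates. Regions higher for RelA numbered 2921 with a pseudocount of 2 RPKM, 3138 with a filter of 5 RPKM and 4-fold over input, and 2209 where both subunits had to be enriched, an alternative chosen after seeing the data. Under the same settings, regions higher for RelB numbered 2550, 3837 and 3377, and they numbered 3767 when scaled to a median ratio of 1 and 9507 after input subtraction. The promoter percent of regions higher for RelA was 15.7% with the pseudocount of 2 RPKM, 18.4% with the stricter filter, 12.1% scaled to a median of 1, 14.0% centred within 20 bins of signal, 23.1% where both were enriched and 17.9% with promoters taken as all regions within 1000 bp of the start site; promoters made up 13.4%, 15.0%, 11.8%, 11.8%, 13.8% and 16.9% of all compared regions under these settings, in the same order. That of regions higher for RelB was 2.19% with the stricter filter, 1.43% centred within bins, 2.19% where both were enriched and 2.72% within 1000 bp. The cause of these moves was not tested. The median log2 ratio was -0.16 with a pseudocount of 0.1 RPKM, -0.15 without a filter, -0.20 with the stricter filter, -0.17 with 1 read taken off, 0.00 by construction when scaled to a median of 1 or centred within bins, -0.082 scaled on regions without enrichment, -0.18 after input subtraction and -0.16 where both were enriched. None of the 53 named regions called at 2-fold changed sign under any alternative that kept it. Starting at least 2-fold from equality, they could hardly do so under these settings. Ly96 and Gusb among them fell under 2-fold in at least 1 alternative, with log2 ratios up to -0.89 and -0.82. Of the 72 named regions under 2-fold, 16 changed sign under at least 1.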

Other observations

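Regions near each other tended to lean alike. Within 10 kb of regions higher for RelA, 13.4% of neighbouring compared regions were higher for RelA and 3.89% higher for RelB. Within 10 kb of regions higher for RelB, 3.81% of neighbours were higher for RelA and 13.2% higher for RelB, and around any region the shares were 6.45% for RelA and 6.59% for RelB. Within 50 kb of regions higher for RelA the shares were 12.9% for RelA and 4.62% for RelB, and within 50 kb of regions higher for RelB they were 4.85% for RelA and 12.0% for RelB. Neighbouring regions share both libraries, so these shares are a description.

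Regions enriched for only 1 subunit had low medians for both. The Zc3h13 region, with 56.5 RPKM for RelA against 0.42 RPKM for RelB, was a strong one among them. Regions of this kind passed the filter through 1 library alone, so the side on which they lie follows from the definition. Those for RelA alone held 4127 of the 6336 regions called higher for RelA. Those for RelB alone held 2752 of the 6129 called higher for RelB. Those enriched for RelA alone had medians of 3.20 RPKM for RelA against 1.50 RPKM for RelB, and 48.2% of them were called higher for RelA. Those enriched for RelB alone had medians of 1.66 RPKM for RelA against 3.14 RPKM for RelB, and 33.3% of them were called higher for RelB.

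Among regions with at least 20 RPKM in the higher library, 6 had more signal of the RelB antibody at 1 h in RelBko cells than in WT cells, and 4 of these were higher for RelA. An intron region of Fam172a, 168 bp long, had 238 RPKM for RelA against 48.2 RPKM for RelB in WT cells at 1 h, the highest RelA value of all compared regions. The same region had 78.5 RPKM in input, 555 RPKM for RelA in RelBko cells and 2803 RPKM with the RelB antibody in RelBko cells at 1 h. Its name and values were chosen after the data were seen, and the cause was not tested.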
